A study of Homo sapiens with 2 samples.

Results

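Collagens and the proteins that modify them were followed on 2 bead arrays of A2058, an established human melanoma cell line. These genes were chosen with earlier results of these data known. The group was defined by gene symbol, from the platform's annotation, and no measured value enters the rule. It took every collagen alpha chain, the lysyl oxidases, the lysyl hydroxylases, named prolyl hydroxylases and their partner CRTAP, the chaperone SERPINH1, the processing enhancer PCOLCE and the transglutaminase TGM2. This gave 58 genes with 97 probes, out of 20046 genes named by 30113 of the 47323 probes on the array. Of the 58 genes, 43 encode collagen chains and 15 encode enzymes or helpers.

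The drug-selected A2058 cells survived selection with carmustine, a DNA-alkylating chemotherapy drug, for which the labels give 100 uM over 6 months. The study's methods describe repeated cycles of treatment, drug removal and regrowth, with the dose raised gradually to 100 uM. The parental A2058 cells were kept in culture alongside the drug-selected cells without that selection. Each was measured on 1 array, so no difference below has a replicate check or a p-value. Precision is limited by the number of arrays. The selected cells were a surviving population and are not described as a clone, and in such bulk RNA fewer cells of a type and less RNA per cell cannot be told apart.

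A collagen is built from 3 alpha chains that wind into a triple helix. In the endoplasmic reticulum, prolyl and lysyl hydroxylases modify the chains and the chaperone HSP47, the product of SERPINH1, holds the folded helix. Outside the cell the propeptides are cut off, and lysyl oxidases and transglutaminases crosslink the assembled collagen. Fibrillar collagens form the banded fibrils of skin, tendon and bone, and FACIT collagens sit on the surface of such fibrils. Collagen IV forms the sheet of basement membranes, the layer a melanoma has to cross to invade the dermis, and the short-chain collagens VIII and X form other networks.

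The signals were background-corrected, quantile normalized and converted to log2, and folds are drug-selected over parental. Signals given in the text without a scale are the deposited average bead signals before normalization, whose array medians, near background, were 63.1 in drug-selected and 52.5 in parental cells. The drug-selected array was therefore the brighter one, and the folds come from the normalized values. A probe was called detected at a detection p under 0.05. A gene counted as higher at folds over 2 and as lower at folds below 0.5. For a gene detected on 1 array the text gives a bound, written as at least, which holds for the normalized values under this correction. Its undetected side was raised, where it lay under it, to the dimmest detected probe of the array, at 4.80 in drug-selected and 4.89 in parental cells (log2). Where this leaves no difference, no fold is given. The size of a bound depends on the offset added in the background correction (normexp), which was 16. Over 8 settings of correction and normalization the bounds were smallest at an offset of 50, and that smaller value is given beside each. COL5A3 and COL14A1 allowed no bound in 1 of these settings, scaling to the 75th percentile.

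Of the 58 genes, 40 were detected on at least 1 array, or 69.0%, against 64.0% of all named genes. Detection on the drug-selected array alone was seen for 10 of the 40, against 10.2% of all detected genes, and detection on the parental array alone for 2, against 4.8%. Among the 40, 14 were higher in drug-selected cells, against 7.12% of all detected genes, and 3 were lower, against 5.84%. With genes seen on 1 array set at their bounds, 13 were higher, against 6.49%, and 3 were lower, against 5.68%. Past 2-fold in either direction were 17 members, against 13.0% of all detected genes. Genes seen on 1 array enter through the side on which they are bright, so the counts were also taken without them and without any filter. Of the 28 members detected on both arrays, 9 were higher, against 5.65% of all such genes, and 2 were lower, against 6.02%. Of all 58 members with no filter, the same counts of 14 and 3 are 24.1% and 5.17%, against 4.56% and 3.74% of all 20046 genes. The median log2 difference of the 40 members was 0.32, and that of all 12832 detected genes was 0.00.

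The higher members were 11 collagen chains and 3 extracellular modifiers, and the lower members were 3 collagen chains. The remaining 23 detected members lay between -0.92 and 0.89 on the log2 scale. For comparison, the log2 differences of the 2 brightest probes of a gene gave an SD of 0.297 per probe. This is the SD of the disagreement within a pair divided by the square root of 2. It was taken over 2892 genes with a pair of probes detected on both arrays. That value measures disagreement between probes on these arrays and not the spread between cultures.

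**Figure D1:**
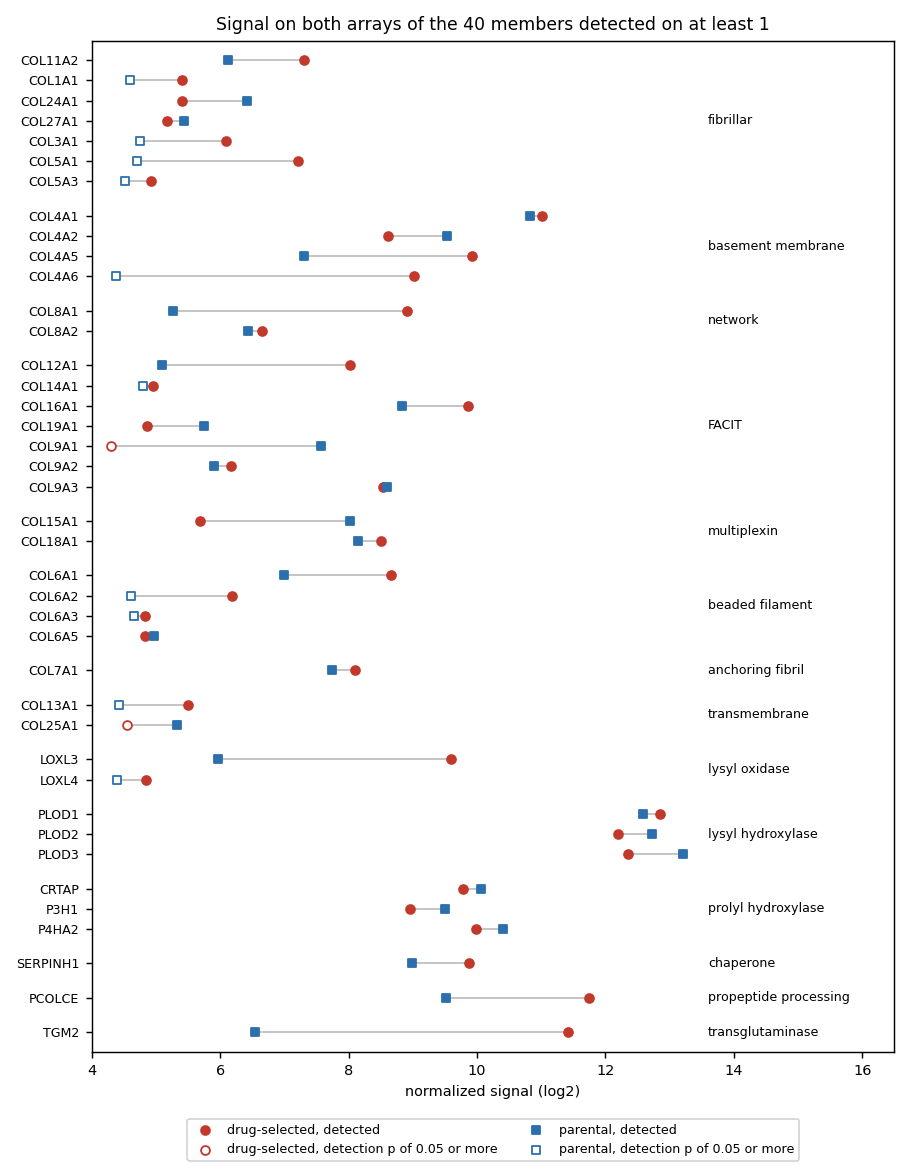
Normalized signal (x axis, log2) of each of the 40 detected members on the drug-selected array (circles) and on the parental array (squares), grouped by class, with open symbols where the detection p was 0.05 or more. The widest gaps are those of TGM2, COL4A6, COL8A1 and LOXL3 with drug-selected cells on the right, and that of COL9A1 with parental cells on the right.

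The fibrillar collagens were higher by COL5A1, COL3A1 and COL11A2 and lower by COL24A1, among 7 detected chains of 11. COL5A1, whose product initiates collagen fibrils, had a signal of 206 in drug-selected and 52.6 in parental cells, at least 4.97-fold higher, or 2.85-fold at the offset of 50. COL3A1, a chain of the fibrils of skin and vessels, had 116 in drug-selected and 53.5 in parental cells, at least 2.31-fold higher, or 1.61-fold at the offset of 50. Neither was detected in parental cells. COL11A2, a chain of cartilage fibrils, had 218 in drug-selected and 88.6 in parental cells, a 2.27-fold difference by 1 of its 2 detected probes. The second of these was not detected in parental cells and had a log2 difference of 0.42. COL24A1 went the other way, with 84.6 in drug-selected and 102 in parental cells, and was 2.02-fold lower. The most abundant fibrillar collagen of connective tissue, collagen I, was close to background on both arrays. COL1A1 had 84.8 in drug-selected and 49.7 in parental cells, where it was not detected, at least 1.43-fold higher, or 1.2-fold at the offset of 50. Neither probe of its partner chain COL1A2 was detected, with lowest detection p-values of 0.0558 in drug-selected and 0.155 in parental cells. COL5A3 had 69.4 in drug-selected and 47.7 in parental cells, where it was not detected, at least 1.02-fold higher, or 1.01-fold at the offset of 50. COL27A1 lay within 2-fold at -0.26 (log2), and COL2A1, COL5A2 and COL11A1 were not detected on either array.

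The fibrillar median of 0.82 (log2) included 4 genes that the parental array did not detect. When both arrays had to detect a gene, it was -0.26 over COL11A2, COL24A1 and COL27A1. COL3A1, COL11A2 and COL24A1 did not pass 2-fold in the authors' normalized values, nor when normexp was left out or given an offset of 50. COL24A1 also fell short with no normalization between arrays and with scaling to the median, and COL11A2 with the median over its probes.

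The chains of collagen IV differed by gene pair. These 6 chains are encoded as 3 pairs of neighbouring genes that are read in opposite directions from starts close to each other. The pair on chromosome X was higher by both genes. COL4A5 had a signal of 1150 in drug-selected and 164 in parental cells and was 6.15-fold higher. Its second probe had 199 in drug-selected and 54.1 in parental cells, where that probe was not detected. COL4A6 had 629 in drug-selected and 42.5 in parental cells, where it was not detected, at least 17.6-fold higher, or 8.71-fold at the offset of 50, by 1 of its 3 probes. The other probes of COL4A6 were not detected on either array. The pair on chromosome 13, whose chains make up the collagen IV of most basement membranes, stayed within 2-fold. COL4A1 had 2408 in drug-selected and 1577 in parental cells, a log2 difference of 0.18 after normalization. COL4A2 had 485 in drug-selected and 665 in parental cells, a difference of -0.92. The pair on chromosome 2, COL4A3 and COL4A4, known from the basement membrane of the kidney glomerulus, was not detected on either array. The median of the 4 detected chains was 1.40, and it was 0.18 with detection required on both arrays, where COL4A6 drops out.

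The starts of the 2 pairs that were detected are shown because the genes of one pair were both higher and those of the other were not. The sequences are RefSeq windows of 300 bases in GRCh38.p14, from 250 bases before to 50 bases after a gene's start, printed 5′ to 3′ along the strand of the gene named. Capitals mark the letters CCAAT and GGGCGG on either strand. The windows of COL4A5 (chrX:108439588-108439887, plus strand) and COL4A6 (chrX:108439409-108439708, minus strand) overlap by 121 bases, and the starts lie 380 bases apart. RefSeq gives COL4A6 a second start, 1416 bases from that of COL4A5. The window of COL4A2 (chr13:110307034-110307333, plus strand) also holds the start of COL4A1, 127 bases away on the other strand.
COL4A5: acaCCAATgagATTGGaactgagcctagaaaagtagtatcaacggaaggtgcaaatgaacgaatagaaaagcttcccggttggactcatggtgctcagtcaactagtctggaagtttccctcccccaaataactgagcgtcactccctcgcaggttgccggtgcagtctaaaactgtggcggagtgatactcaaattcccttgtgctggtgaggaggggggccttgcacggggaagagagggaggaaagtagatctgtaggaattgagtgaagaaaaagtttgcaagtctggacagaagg
COL4A6: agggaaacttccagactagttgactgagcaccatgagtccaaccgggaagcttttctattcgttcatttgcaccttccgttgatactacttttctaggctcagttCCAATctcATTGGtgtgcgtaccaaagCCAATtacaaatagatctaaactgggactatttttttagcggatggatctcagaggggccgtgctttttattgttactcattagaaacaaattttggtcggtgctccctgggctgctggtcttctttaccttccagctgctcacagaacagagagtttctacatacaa
COL4A2: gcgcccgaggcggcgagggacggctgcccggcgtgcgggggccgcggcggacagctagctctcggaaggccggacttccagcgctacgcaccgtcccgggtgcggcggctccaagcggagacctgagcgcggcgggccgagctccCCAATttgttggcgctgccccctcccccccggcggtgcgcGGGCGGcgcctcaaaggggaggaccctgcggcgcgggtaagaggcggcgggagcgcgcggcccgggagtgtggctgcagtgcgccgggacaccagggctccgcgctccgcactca

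The window of COL4A5 holds CCAAT 2 times, that of COL4A6 3 times, and neither holds GGGCGG. The 2 matches of COL4A5 lie where the windows overlap and are also 2 of the 3 matches of COL4A6. The COL4A2 window holds 1 of each. CCAAT was present on either strand in 34.6% and GGGCGG in 45.0% of all 35116 windows. The G and C content was 49.3% for COL4A5, 43.7% for COL4A6 and 77.7% for COL4A2, with a median of 58.7% over all windows. TATAAA, present in 11.5% of all windows, was in none of the 3. These are matches of letters and no sites of binding were measured. Windows were found for 43 of the 58 members. At least 1 window held GGGCGG for 8 of the 10 higher members that have one, COL4A6 among them through its second start. The same held for 15 of the 19 detected members within 2-fold, 2 of the 3 lower and 6 of the 11 not detected. Of all genes, 48.3% had it. CCAAT was in 3 of the 10 higher, 7 of the 19 within 2-fold, 1 of the 3 lower and 4 of the 11 not detected. Members whose windows overlap were each counted, so the stretch shared by COL4A5 and COL4A6 enters for both. Of all genes, 39.7% had it.

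**Figure D2:**
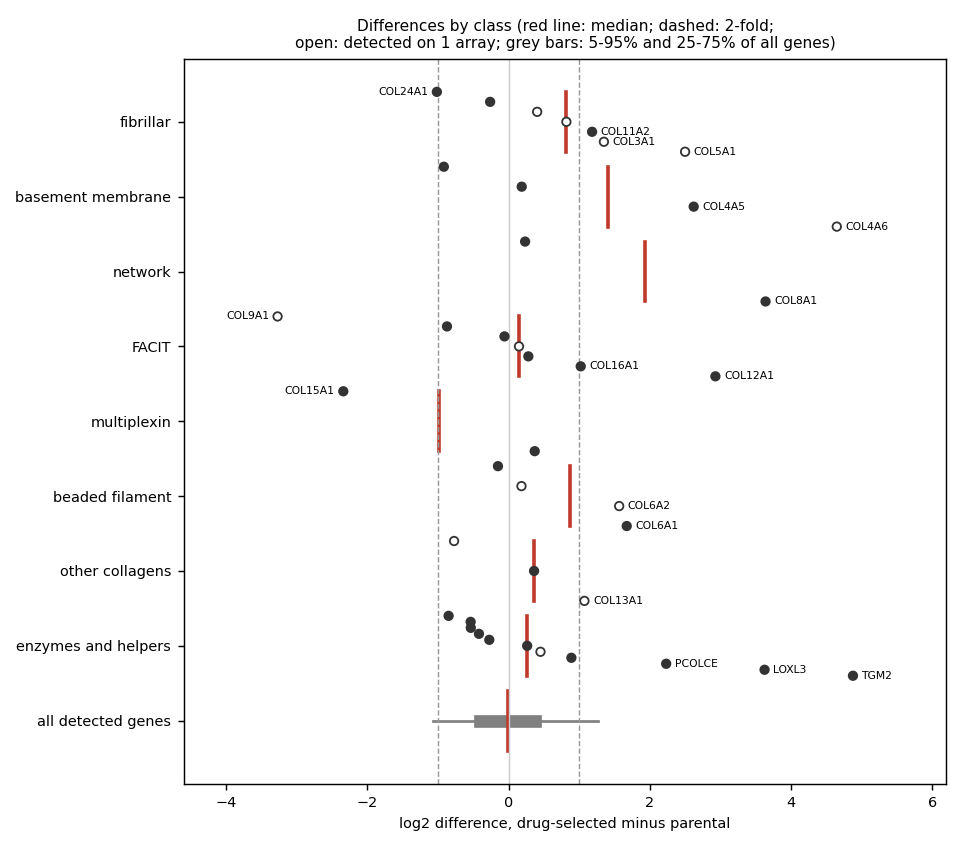
Log2 difference (x axis, drug-selected minus parental) of each detected member by class, filled where it was detected on both arrays, with the median in red and dashed lines at 2-fold, above the spread of all detected genes. Each plotted class has members on both sides of 0 except the network collagens, COL8A1 and COL8A2.

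Of the network collagens, COL8A1 was higher and its partner chain differed little. Collagen VIII is known from vessel walls and from the membrane under the corneal endothelium. COL8A1 had a signal of 583 in drug-selected and 63.5 in parental cells and was 12.5-fold higher. A second probe had 414 in drug-selected and 57.5 in parental cells, with a log2 difference of 3.41, and the remaining probe was not detected on either array. COL8A2 had 153 in drug-selected and 103 in parental cells by its brighter probe, and both of its probes gave a log2 difference of 0.23. COL10A1, the chain of hypertrophic cartilage, was not detected on either array. A class median of 1.94 over 2 genes is the midpoint of 3.64 for COL8A1 and 0.23 for COL8A2 and describes neither.

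The FACIT collagens included both directions, with COL12A1 and COL16A1 higher and COL9A1 lower among 7 detected of 10. COL12A1, whose product bridges collagen fibrils, had 338 in drug-selected and 60.3 in parental cells, a 7.61-fold difference. Its other probe had 78.7 in drug-selected and 57.1 in parental cells and a log2 difference of 0.30, so the probes disagreed on the size. COL16A1 had 1095 in drug-selected and 423 in parental cells and was 2.03-fold higher, at the threshold. COL9A1, a cartilage chain, had 45.4 in drug-selected cells, where it was not detected, and 190 in parental cells, at least 6.84-fold lower, or 3.62-fold at the offset of 50. That value came from 1 of its 4 probes, the others being undetected on both arrays. The partner chains COL9A2 and COL9A3 had log2 differences of 0.28 and -0.06. COL19A1 had 68.0 in drug-selected and 75.6 in parental cells, a difference of -0.87, and COL14A1 had 70.2 in drug-selected and 54.6 in parental cells, where it was not detected, at least 1.04-fold higher, or 1.02-fold at the offset of 50. The FACIT median was 0.15, and it was -0.08 with scaling to the 75th percentile.

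Among the remaining collagens, COL6A1 and COL6A2 were higher and COL15A1 was lower. Collagen VI forms beaded filaments around cells from 3 different chains. COL6A1 had 500 in drug-selected and 137 in parental cells and was 3.19-fold higher. COL6A2 had 121 in drug-selected and 50.5 in parental cells, where it was not detected, at least 2.45-fold higher, or 1.67-fold at the offset of 50, by 1 of its 3 probes. The third common chain, COL6A3, had 67.0 in drug-selected and 51.4 in parental cells, where it was not detected, and its log2 difference of 0.18 allows no bound. COL6A5 was detected on both arrays, with 66.7 in drug-selected and 58.0 in parental cells and a log2 difference of -0.15. That value came from 1 of its 5 probes, with a detection p of 0.0403 in drug-selected and 0.0312 in parental cells. The other probes of COL6A5 were not detected on either array. COL15A1 and COL18A1 encode the multiplexins of the basement membrane zone, and the C-terminal fragment of collagen XVIII is endostatin, an inhibitor of angiogenesis. COL15A1 had 95.5 in drug-selected and 250 in parental cells and was 5.07-fold lower. COL18A1 had 453 in drug-selected and 270 in parental cells, a log2 difference of 0.37. COL7A1, the anchoring fibril that ties the epidermal basement membrane to the dermis, had 354 in drug-selected and 211 in parental cells, a log2 difference of 0.36. Of the transmembrane collagens, COL13A1 had 88.3 in drug-selected and 44.7 in parental cells, where it was not detected. Its normalized fold was 2.10 and its bound 1.53, or 1.25 at the offset of 50. COL25A1 had 58.4 in drug-selected cells, where it was not detected, and 64.9 in parental cells, at least 1.45-fold lower, or 1.2-fold at the offset of 50. COL6A6, COL20A1, COL21A1, COL22A1, COL23A1, COL26A1 and COL28A1 were not detected on either array.

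Fibrillar, basement membrane, network and FACIT collagens thus had 3 of 7, 2 of 4, 1 of 2 and 2 of 7 detected members higher. In the same order, 1, 0, 0 and 1 were lower. Past 2-fold, the shares over every gene detected on at least 1 array were 7.12% upward and 5.84% downward. With detection required on both arrays, the classes had 1 of 3, 1 of 3, 1 of 2 and 2 of 5 higher. Lower were then 1, 0, 0 and 0. Over every gene detected on both arrays, the shares were 5.65% upward and 6.02% downward. With 1 array in each group and 2 to 7 genes in each class, a difference between classes was not tested. Chains of one collagen type differed alike in some pairs and not in others. COL4A5 and COL4A6 were both higher, as were COL6A1 and COL6A2, while COL8A1 and COL8A2, COL9A1 and COL9A3, and COL6A1 and COL6A3 each paired a chain past 2-fold with a chain within it.

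Of the 11 detected enzymes and helpers, 3 were higher, or 27.3% against 7.12% of all detected genes, and 0 were lower, against 5.84%. The higher ones act outside the cell. The hydroxylases of the endoplasmic reticulum included none, among 3 detected lysyl hydroxylases and 3 detected prolyl hydroxylase genes with CRTAP. A count of none among so few genes is near the share of all genes. TGM2, a transglutaminase that crosslinks matrix proteins and also acts inside cells, had 3167 in drug-selected and 109 in parental cells and was 29.4-fold higher. Its other probes, with 218 and 102 in drug-selected cells and 55.2 and 46.1 in parental cells, were not detected in parental cells and had log2 differences of 2.47 and 1.35. All 3 probes had higher signals in drug-selected cells, with different sizes, and the bound of the dimmest one was 1.90-fold. LOXL3, a lysyl oxidase that starts the crosslinks of collagen, had 922 in drug-selected and 82.9 in parental cells and was 12.3-fold higher by its only probe. Of the other lysyl oxidases, LOXL4 had 67.5 in drug-selected and 43.5 in parental cells, where it was not detected, and its log2 difference of 0.45 allows no bound. LOX, LOXL1 and LOXL2 were not detected on either array. PCOLCE, which speeds the removal of the C-terminal propeptide of fibrillar collagens, had 3966 in drug-selected and 657 in parental cells and was 4.69-fold higher. SERPINH1 had 1104 in drug-selected and 465 in parental cells, a log2 difference of 0.89 that lay within 2-fold.

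The lysyl hydroxylases gave strong signals in both cell populations. PLOD3, which also adds sugars to hydroxylysine, had 5995 in drug-selected and 8015 in parental cells, a log2 difference of -0.85. PLOD2, the hydroxylase of the telopeptides, had 5418 in drug-selected and 6014 in parental cells and a difference of -0.54 by its brightest probe, and its 3 probes ran between -0.54 and 0.09. PLOD1 had 8298 in drug-selected and 5325 in parental cells, a difference of 0.26. Of the prolyl hydroxylases, P4HA2, a catalytic subunit of prolyl 4-hydroxylase, had 1202 in drug-selected and 1196 in parental cells and a difference of -0.42. P3H1, the prolyl 3-hydroxylase, had 604 in drug-selected and 649 in parental cells and a difference of -0.54. CRTAP, its partner in one complex, had 1044 in drug-selected and 941 in parental cells and a difference of -0.27. The second catalytic subunit in the group, P4HA3, was not detected on either array.

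**Figure D3:**
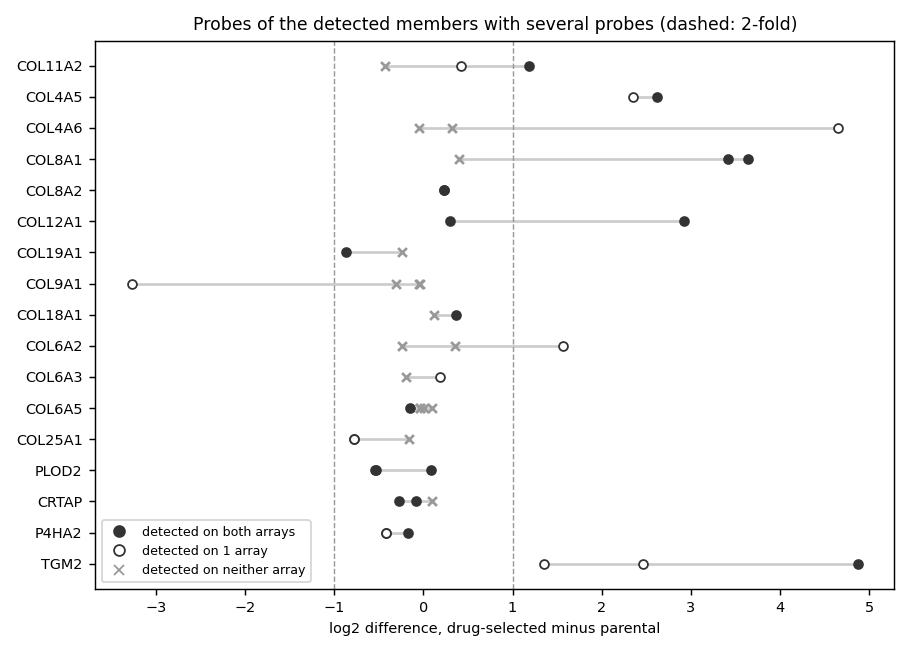
Log2 difference (x axis, drug-selected minus parental) of every probe of the 17 detected members with several probes, filled where the probe was detected on both arrays, open where on 1, and as a cross where on neither. The probes of COL4A5 and of COL8A2 lie together, while those of TGM2, COL12A1, COL4A6 and COL9A1 lie apart.

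Other genes of collagen biosynthesis, which the symbol rule leaves out, included none that was higher. Of 18 such genes with a named probe, 15 were detected, none was higher and 3 were lower, against 7.12% and 5.84% of all detected genes, and their median log2 difference was -0.41. P4HB, the beta subunit of prolyl 4-hydroxylase and a protein disulfide isomerase, had 2761 in drug-selected and 4527 in parental cells and was 2.21-fold lower. P3H2, a second prolyl 3-hydroxylase with a preference for collagen IV, had 63.1 in drug-selected cells, where it was not detected, and 172 in parental cells, at least 6.03-fold lower, or 3.26-fold at the offset of 50. MIA3, which helps load procollagen into transport carriers, was 2.02-fold lower, at the threshold. P4HA1, the main catalytic subunit of prolyl 4-hydroxylase, had a log2 difference of -0.40. P3H3 and P3H4, of the same family as P3H1, had log2 differences of 0.28 and 0.62. Of the 11 detected genes of the prolyl and lysyl hydroxylase families and their partners, 8 lay below 0, all but PLOD1, P3H3 and P3H4. With no normalization between the arrays, where the median of all genes was 0.37, 6 of the 11 lay below 0, and with scaling to the median, where it was 0.23, 7 did. In both settings 8 of the 11 lay below the median of all genes.

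All 9 listed collagen receptors were detected, with ITGA1 higher and DDR2 lower, or 11.1% in each direction against 7.12% and 5.84% of all detected genes. ITGA1, the alpha chain of an integrin that binds collagen IV, had 542 in drug-selected and 136 in parental cells and was 3.53-fold higher. DDR2, a receptor tyrosine kinase activated by fibrillar collagen, had 384 in drug-selected and 668 in parental cells and was 2.46-fold lower by its brighter probe. The others, ITGA2, ITGA10, ITGA11, ITGB1, DDR1, MRC2 and LAIR1, were within 2-fold in the normalized values. Of these, ITGA11 and MRC2 were not detected in parental cells. ITGA11 was at least 1.51-fold higher, or 1.24-fold at the offset of 50, and MRC2 at least 1.72-fold, or 1.33-fold.

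**Figure D4:**
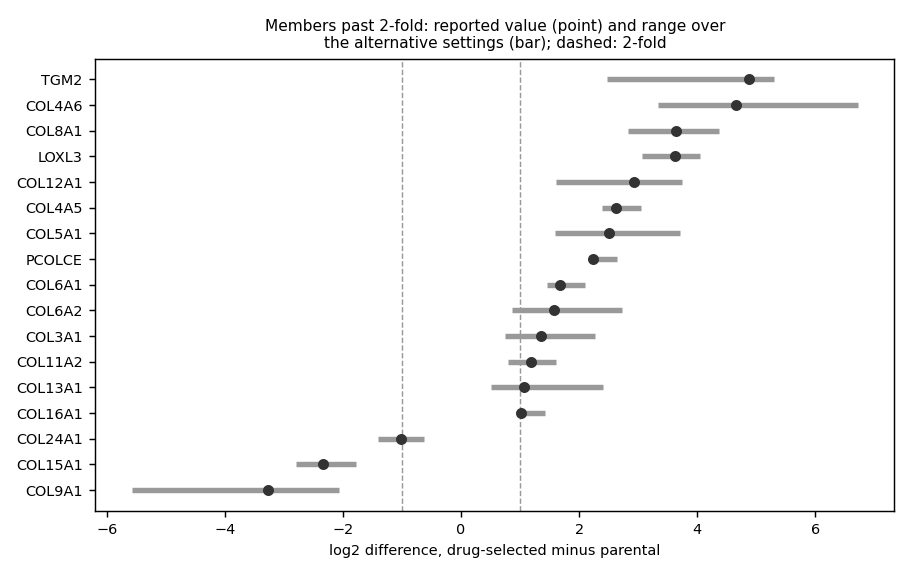
Log2 difference (x axis, drug-selected minus parental) of the 17 members past 2-fold, with the reported value as a point and the range over the alternative settings as a bar, and dashed lines at 2-fold. For 11 of the 17 the whole bar lies beyond 2-fold, and the bars of COL11A2, COL13A1, COL16A1, COL24A1, COL3A1 and COL6A2 cross it.

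Markers were read to check the label of the cells and the presence of other cell types. Of 7 melanocyte lineage genes with a named probe, 6 were detected on both arrays. Among the 6, 5 were lower in drug-selected cells, or 83.3% against 5.84% of all detected genes. The summed normalized signal of the 6 was 4114 in drug-selected and 43386 in parental cells. SOX10 was within 2-fold, with deposited signals of 1684 in drug-selected and 2356 in parental cells. All 8 fibroblast markers, which name cells that make much collagen, were detected in drug-selected and 6 in parental cells, and 6 were higher and 2, DCN and LUM, were lower. Their summed normalized signal was 2348 in drug-selected and 3851 in parental cells, and COL1A2 was not detected on either array. DCN and LUM made up most of the parental sum, and the 6 other markers summed to 1288 in drug-selected and 314 in parental cells. Of 5 endothelial markers, CDH5 and KDR were not detected on either array. Of the 3 others, TEK and PECAM1 were higher, or 66.7% against 7.12% of all detected genes, and VWF was within 2-fold. The summed normalized signal of these 3 was 282 in drug-selected and 100.3 in parental cells. Of 4 leukocyte markers, PTPRC and CD3E were not detected on either array. CD14 and LYZ were both higher, against 7.12% of all detected genes, and summed to 575 in drug-selected and 77.9 in parental cells. LYZ was not detected in parental cells, and its bound was 1.90-fold, or 1.42-fold at the offset of 50. The part of these shifts in the collagen values was not tested.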

How the data were processed

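RNA of drug-selected and parental A2058 cells was measured on Illumina HumanHT-12 v4 bead arrays, 1 array each. For every probe the authors deposited a mean bead intensity, linear and not normalized, and a detection p-value. The study's methods state that a background was subtracted for each bead. The lowest deposited signals were 30.5 in drug-selected and 25.7 in parental cells, so a background level remained. The authors also deposited a normalized intensity, made by a method that the sources used here do not give, whose sorted columns differ by a median of 0.025%. The study's methods define the fold by suspended and adherent cells, which matches neither label. Drug-selected over parental was used here.

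Intensities were corrected with limma 3.58.1 in R 4.3.3 (normexp from the detection p-values, offset 16), quantile normalized and converted to log2. These settings had been used before on these arrays. The correction decides how large the folds of dim probes are, and the normalization decides the ratio of higher to lower genes. Each gene took the values of its brightest detected probe by mean log2 signal. The platform's annotation gives 1 symbol for 30113 probes and several for 8, and the remaining 17202 are unnamed here. Of the named probes, 30074 matched RefSeq gene identifiers, and no symbol had to be updated. COL17A1 was listed and was not analysed here.

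Members and lists were chosen with earlier results of these data known. The rule for named genes takes every member, with signals on both arrays for those past 2-fold, detected on 1 array or brightest in their class, and the genes past 2-fold of the related lists. Further genes and signals were added after their values were seen. No test was run, with 1 array per group. Alternatives were a normexp offset of 50 or 0, omitting normexp, omitting normalization, scaling arrays to their 75th percentile or median, the authors' normalized intensity, other detection filters, the median over probes, and thresholds of 1.5-fold and 3-fold. Scripts were tested on simulated data. Counts and figures were made in Python 3.11.15 with numpy 2.4.6, pandas 2.3.3 and matplotlib 3.10.9.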

Additional observations from a re-analysis of the deposited data

How the results depend on the processing

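The direction of all 17 members past 2-fold was the same in each of the 11 alternatives to the correction, normalization, filter and probe choice in which the gene had a value. In 11 of the 17 the difference stayed past 2-fold in each of them. The other 6, COL11A2, COL13A1, COL16A1, COL24A1, COL3A1 and COL6A2, fell within 2-fold in at least 1, and all 6 did so when normexp was left out or had an offset of 50.

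The count of higher members was 14, against 7.12% of all genes. It was 9 with an offset of 50 (4.82% of all genes), when normexp was left out (5.09%), with detection on both arrays, where fewer genes are counted (5.65%), and at 3-fold (3.54%), and 17 with an offset of 0 (11.7%). The count of lower members was 3. It was 5 with an offset of 0, or 12.5% against 10.4% of all genes, and 7 at 1.5-fold, or 17.5% against 15.9%. The median over all members moved to 0.65 with no normalization between arrays, where the median of all genes was 0.37.

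The fibrillar median of 0.82 was 0.40 with an offset of 50, 1.40 with an offset of 0, 0.47 with no normexp, 0.48 in the authors' normalized values, 0.25 with no detection filter and -0.26 with detection on both arrays. The network median of 1.94 was 1.497 with an offset of 50, 1.502 with no normexp, 2.32 with an offset of 0, 1.54 in the authors' values, 0.23 with no filter and 2.33 with no normalization between arrays. The basement membrane median of 1.40 was 1.83 with no normalization, 0.18 with detection on both arrays and 0.13 with no filter. That of the enzymes and helpers, 0.26, was 0.57 with no normalization and 0.012 with no filter. It was -0.006 with detection on both arrays and also at a detection p under 0.01. The filters change which genes are counted, and the cause of the other shifts was not tested. Over all genes, 55.0% of those past 2-fold were higher, against 84.2% with no normalization between arrays, where the median shift was 0.37, and 76.4% with scaling to the median.

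No replicate was left out, and no paired analysis was possible because each group had 1 array. Signals near background limit COL1A1, COL3A1, COL5A3, COL6A2, COL6A3, COL6A5, COL13A1, COL14A1, COL19A1, COL24A1, COL25A1 and LOXL4. They also limit the size of a fold where 1 side is near background. The parental signal was 60.3 for COL12A1 and 63.5 for COL8A1. Over the alternative settings, the log2 difference ran from 1.61 to 3.74 for COL12A1 and from 2.82 to 4.37 for COL8A1. COL4A6, COL5A1 and COL9A1 had an undetected side.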

Other observations

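Proteins that bind collagen fibrils outside the cell differed in both directions. Of 9 listed, 8 were detected. Higher were 4, against 7.12% of all detected genes, lower were 2, against 5.84%, and the median over the 8 was 1.29 (log2) against 0.00 over all detected genes. Fibromodulin (FMOD), a small proteoglycan that guides fibril growth, had a signal of 214 in drug-selected cells and 46.1 in parental cells, where it was not detected, at least 5.18-fold higher, or 2.95-fold at the normexp offset of 50. Thrombospondin 1 (THBS1), which binds many matrix proteins, had 2517 in drug-selected and 333 in parental cells and was 6.13-fold higher. Biglycan (BGN) had 349 in drug-selected and 80.3 in parental cells, and periostin (POSTN), a matrix protein that aids crosslinking, had normalized signals of 7.14 in drug-selected and 5.04 in parental cells (log2). They were 4.56-fold and 4.30-fold higher. The small proteoglycans decorin (DCN) and lumican (LUM) were lower. DCN had 101 in drug-selected and 429 in parental cells, an 8.32-fold difference, and LUM had 1188 in drug-selected and 2701 in parental cells, a 3.06-fold difference. FN1, which encodes fibronectin, and SPARC, which binds collagen, were within 2-fold, and TNXB was not detected on either array.

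Of 7 listed enzymes that cut collagen, 5 were detected. Of these 1 was higher, against 7.12% of all detected genes, and 2 were lower, against 5.84%. The interstitial collagenase MMP1 had 1458 in drug-selected and 286 in parental cells and was 4.18-fold higher. The neutrophil collagenase MMP8 had 49.6 in drug-selected cells, where it was not detected, and 217 in parental cells, at least 7.97-fold lower, or 4.14-fold at the offset of 50. The membrane-bound MMP14 had 77.6 in drug-selected and 117 in parental cells and was 2.83-fold lower. MMP2 and CTSK were within 2-fold, and MMP9 and MMP13 were not detected on either array.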
